A study of Homo sapiens with 33 samples.

Results

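The MITF variant named rep217A was compared with wild-type MITF (WT) on the chromatin of UACC-257 cells, a line established from human melanoma. The members were chosen by sample title: 3 of the 33 samples of the series carry rep217A, and 3 carry WT. The peak lists of rep217A replicates 2 and 3 were identical in every value and were counted as 1 list, which left n = 2 for rep217A and n = 3 for WT among 31 distinct lists. Both groups share the genotype label MITF knockdown and doxycycline treatment, and in both the protein carried an HA tag. The assay was CUT&Tag, where a transposase is guided by an antibody (to HA here) and cuts and tags the DNA near the bound protein. The other groups, each of 3 samples under the same labels, are an empty control (Empty) and the variants A264C, E260A, G244E, K243A, N278D, Q261A, Y253A and rep263A. The labels do not say what the name rep217A stands for, or whether replicates were separate cultures, so p-values measure only the spread between these samples.

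MITF is a transcription factor of the basic helix-loop-helix leucine zipper class, whose members bind as dimers to E-boxes, hexamers of the form CANNTG. The sites best known for MITF are CACGTG, a palindrome with a CG centre, and CATGTG, often next to a T, while CAGCTG, with a GC centre, is better known for other helix-loop-helix factors such as MyoD. In melanocytes MITF drives genes of pigment synthesis, survival and the cell cycle, and with its relatives TFEB and TFE3 it acts on genes of lysosomes and autophagy.

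Promoter sequences in which an E-box lay near the peak summits are shown as examples, since the contrast described below is one of E-box shares over many promoters. They are given for 3 genes in each direction, taken only from the genes named below, which include called genes of chosen lists. Of those named, they had the lowest adjusted p-values among genes whose promoter window held an E-box upstream of the start under a strong peak. The sequences are from RefSeq (GRCh38.p14), read 5′ to 3′ on the strand of the gene, with these 3 kinds of E-box in capitals in either orientation. MAF, AKR7A2 and ATP6V0D1 ranked higher in rep217A, and SLC25A13, NR1D1 and FNIP1 ranked lower.
MAF: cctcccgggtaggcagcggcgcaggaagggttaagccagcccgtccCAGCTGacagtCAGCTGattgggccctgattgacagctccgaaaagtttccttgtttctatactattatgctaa
AKR7A2: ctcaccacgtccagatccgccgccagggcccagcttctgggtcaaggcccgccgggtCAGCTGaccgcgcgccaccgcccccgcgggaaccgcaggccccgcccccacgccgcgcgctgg
ATP6V0D1: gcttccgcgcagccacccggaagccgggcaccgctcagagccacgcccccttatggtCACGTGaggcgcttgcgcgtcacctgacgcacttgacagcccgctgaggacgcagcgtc
SLC25A13: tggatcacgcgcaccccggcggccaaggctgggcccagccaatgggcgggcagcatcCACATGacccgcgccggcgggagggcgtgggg
NR1D1: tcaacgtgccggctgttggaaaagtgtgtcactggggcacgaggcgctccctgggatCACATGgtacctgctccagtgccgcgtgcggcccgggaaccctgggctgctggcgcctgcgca
FNIP1: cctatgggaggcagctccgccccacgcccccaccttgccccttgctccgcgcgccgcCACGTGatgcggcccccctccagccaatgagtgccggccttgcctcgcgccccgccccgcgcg
All 6 genes lie on the minus strand. The stretches cover chr16:79600844-79600963 (MAF), chr1:19312244-19312363 (AKR7A2), chr16:67481158-67481273 (ATP6V0D1), chr7:96322099-96322187 (SLC25A13), chr17:40100640-40100759 (NR1D1) and chr5:131797049-131797168 (FNIP1). The MAF stretch holds 2 copies of CAGCTG, and the AKR7A2 stretch holds 1. The ATP6V0D1 and FNIP1 stretches each hold a CACGTG, and the ATP6V0D1 window holds a CAGCTG elsewhere. The SLC25A13 and NR1D1 stretches each hold a CATGTG site in the other orientation, and the SLC25A13 window holds a CACGTG elsewhere. The palindrome with the CG centre thus stands in windows of both directions. The E-box nearest a summit lay 30.5 bp from it in MAF, 58.5 bp in AKR7A2, 35.5 bp in ATP6V0D1, 55.5 bp in SLC25A13, 2.5 bp in NR1D1 and 24.5 bp in FNIP1.

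Each list gives peaks called on 1 library, and a peak was ranked within its list by its deposited −log10 q, from 1 for the strongest. Ranks say where a peak stands in its own list and not how much protein was bound. The rep217A lists were shallower. Their background pileup (tags expected at a site without a peak, worked out from the deposited values and used as relative depth) was 0.276 and 0.348, against 1.201, 1.082 and 1.181 in WT, 0.427 and 0.487 in rep263A and 0.132 to 0.244 in K243A. The rep217A lists held 182189 and 227446 peaks and the WT lists 227330, 193462 and 201958. The peak at rank 10000 had a −log10 q of 19.5 and 22.3 in rep217A and of 100.2, 92.1 and 96.2 in WT. The 10000 strongest peaks were narrower in rep217A, with median widths of 659 and 693 bp against 807, 868 and 923 bp. At the regions tested below, the chi-square per degree of freedom of the recovered pileups, which is near 1 for counting noise alone if tags are independent, was 1.40 between the 2 rep217A lists and 1.39 to 2.01 between WT lists. Between rep217A and WT it was 19.2 to 23.3, and between rep263A and WT 3.89 to 5.31.

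The first question was how many of the strongest wild-type peaks the variant shared. Among the 100 strongest peaks, 84.0% of those of a WT list were overlapped by those of another WT list, and 81.0% of those of a rep217A list by the other rep217A list. Between the groups the share was 23.3%. The 100 strongest peaks of each group were therefore mostly found again in the same group and mostly not among the 100 strongest of the other. Such peaks can still be listed in the other group at a lower rank. With the 1000 strongest peaks the share of WT peaks found by rep217A was 39.6%, with 10000 it was 63.4%, and with 50000 it was 75.0%, while WT lists found 87.1%, 90.7% and 91.6% of each other's peaks. At 10000 peaks the values were 63.3% and 63.5% in the 2 rep217A lists and 88.6% to 92.5% in the 3 WT lists, and the groups did not overlap (exact permutation test over libraries, two-sided, p = 0.1, the smallest that 3 against 2 allows). Of the other shallow variants, rep263A and K243A were compared in this way, and both found more of the WT peaks. G244E, with a background pileup of 0.108 to 0.151, was not compared. Over the 100 strongest peaks rep263A found 55.7% and K243A, which is shallower than rep217A, 56.1%, and over 10000 they found 84.2% and 75.5%. With the WT, rep263A and rep217A lists thinned to the background pileup of the shallowest rep217A list, WT lists found 84.65%, 82.9% and 81.2%, the rep263A lists 79.55% and 79.6%, and the rep217A lists 61.5% and 61.4%.

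**Figure D1:**
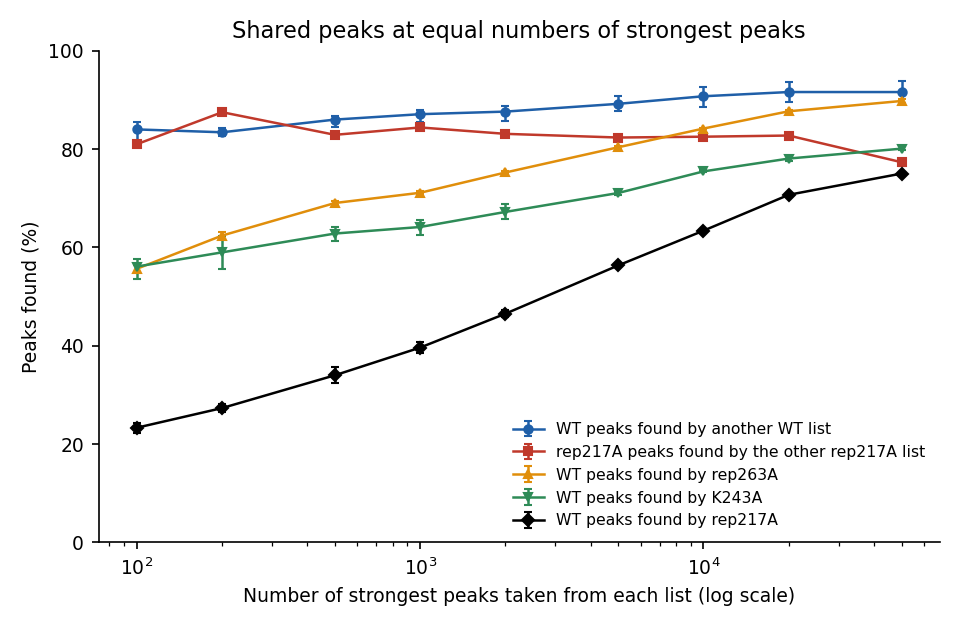
Share of the strongest peaks of one list overlapped by the strongest peaks of another (y axis, %), against the number of peaks taken from each list (x axis, log scale); points are means over lists and bars the lowest and highest list. WT peaks found by rep217A rise from 23.3% to 75.0% and lie below those found by K243A and rep263A at every number taken.

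Ranks were then tested region by region. The 10000 strongest peaks of the 5 lists merged into 13413 regions, each with its best rank in every list (all ranks past 20000 were set to the same value just past it). The difference is given as a log2 rank gain, positive where the region stood higher in rep217A, so that a gain of 1 divides the rank number by 2. By limma with Benjamini-Hochberg adjustment, 3906 regions (29.1% of those tested) ranked higher in rep217A and 4515 (33.7%) ranked lower, 62.8% in either direction. A region can enter through the group in which it stands high, so these counts are a description. Of the higher regions, 1190 were past 20000 in all WT lists, and of the lower, 1383 in both rep217A lists. Setting those ranks equal leaves no spread in that group, so their p-values do not measure it. The ranks of the groups did not overlap in 4700 regions (35%) with higher and 5337 (39.8%) with lower ranks in rep217A. With a single rep217A list in the fit, whose spread is then assumed to equal that of WT, the regions called lower were 2565 without replicate 1 and 2579 without replicate 2. Against rep263A, 20.1% of 14000 regions ranked higher in rep217A and 25.9% lower (45.9% in either direction), and against K243A 17.9% of 14113 ranked higher and 14.2% lower (32.1%). In rep263A against the same WT lists, 15.7% of 11783 regions ranked higher and 11.8% lower (27.6%).

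**Figure D2:**
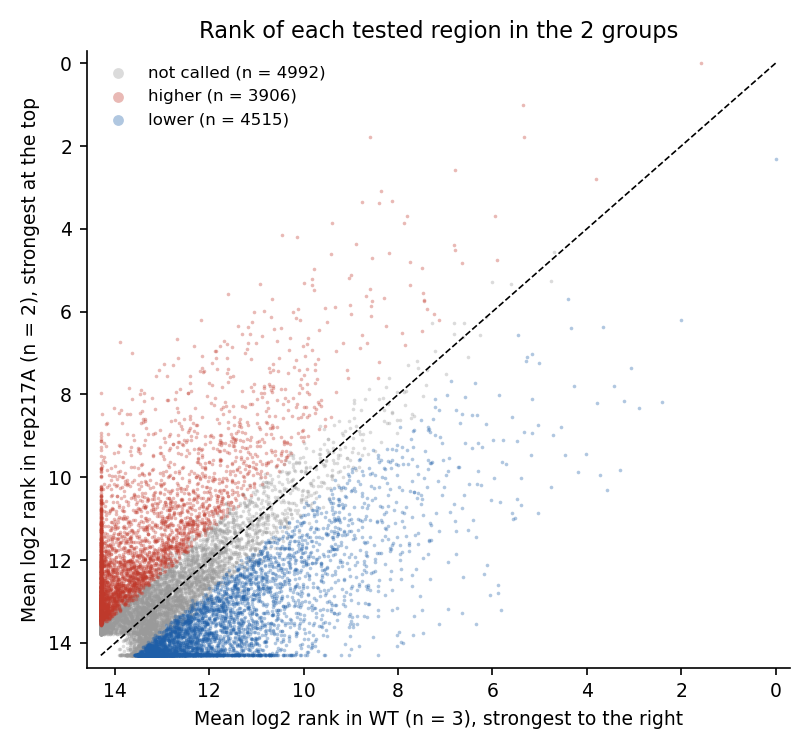
Mean log2 rank of each of the 13413 regions in WT (x axis, n = 3) and in rep217A (y axis, n = 2), with the strongest at the right and the top, coloured by the limma call; the dashed line marks equal rank. The 3906 regions called higher and the 4515 called lower reach to the strongest ranks of each group, and the columns at the edges hold ranks past 20000.

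The 12 regions named here that ranked higher in rep217A lay away from gene starts. They tied at the lowest adjusted p-value and were taken by the size of the rank gain. A region 65965 bp from the start of MYCN, an oncogene of the MYC family (chromosome 2, 16006151 to 16006881, hg38, outside genes), ranked 14081, 13312 and 18593 in WT and 140 and 81 in rep217A. Its recovered summit pileup was 82, 78 and 68 in WT and 182 and 250 in rep217A, so the shallower lists held more tags there. The log2 rank gain was 7.15 ± 0.32 (SE, limma adjusted p = 6.98e-06). The region nearest TSN, the gene of translin, which binds nucleic acids (chromosome 2, 121884332 to 121885248, outside genes and 116936 bp from the nearest gene end), ranked 434, 373 and 359 in WT and 4 and 3 in rep217A. Its pileups of 601 and 688 in rep217A were likewise above the 460, 455 and 474 of WT. A region inside SULF2, which encodes a sulfatase acting on heparan sulfate (chromosome 20, 47682034 to 47683050), was past rank 20000 in all 3 WT lists and ranked 213 and 288 in rep217A. It was still listed in WT, with a pileup of 39, 30 and 22 against 184 and 195.

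The other 9 regions of this kind were nearest or inside SPATA17, LRRC75A, GPC1, CFAP61, FARP2, ALK, AZIN1, DRC4 and PPP1R37, with gains of 5.54 to 6.02. GPC1 encodes a cell-surface proteoglycan, and ALK a receptor tyrosine kinase. The ALK region lay inside the gene (chromosome 2, 29454919 to 29455938) and ranked 8842, 8702 and 9316 in WT and 177 and 202 in rep217A. None of the 12 regions overlapped a promoter window. All 12 regions were among the 10000 strongest peaks of some other variant list, from 5 of 23 lists (PPP1R37) to all 23 (TSN, SPATA17 and FARP2).

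Of the regions that ranked lower, those named here were taken in the same way, and some lay at gene starts and others far from them. The region 250 bp from the start of PPP1R12B, which encodes a regulatory subunit of myosin phosphatase (chromosome 1, 202348394 to 202349506), ranked 80, 81 and 83 in WT and 12257 and 11434 in rep217A. Its pileup was 646, 619 and 649 in WT and 19 and 23 in rep217A, a log2 rank gain of -7.19 ± 0.24 (SE, limma adjusted p = 6.98e-06). In rep263A the region ranked 276 and 176. The region 59 bp from the start of USP32, a deubiquitinase gene (chromosome 17, 60391495 to 60392891), ranked 8, 10 and 12 in WT and 952 and 860 in rep217A, with pileups of 1135, 1039 and 1108 against 110 and 129. The region 141 bp from the start of SLC25A13, which encodes a mitochondrial aspartate and glutamate carrier (chromosome 7, 96321320 to 96322595), ranked 68, 73 and 76 in WT and 4149 and 6396 in rep217A. Ranked by fold enrichment, the USP32 and SLC25A13 genes did not pass the test (gains of -0.0055 and -0.33). The remaining 9 regions were nearest or inside CBFA2T2, MORC3, CLN6, FTH1, TNFRSF14, EXOC2, DCLK1, KCNAB2 and C2orf42, with gains of -5.49 to -6.91. Of these, CLN6 encodes a membrane protein needed for lysosome function and FTH1 the heavy chain of ferritin. The TNFRSF14 region lay 563 bp from the gene start. The CBFA2T2 region lay 29 bp from the upstream end of the gene span and 72275 bp from the gene start used here. Those of MORC3, CLN6, EXOC2, DCLK1 and KCNAB2 lay 27619 to 43980 bp from the gene start. All 12 regions were among the 10000 strongest peaks of at least 20 of the 23 other variant lists.

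The strongest peaks of all were partly shared. The region 155 bp from the start of NAPA, which encodes a membrane fusion adaptor (chromosome 19, 47514745 to 47515692), ranked 1 in both rep217A lists and 3 in all WT lists. The region 189 bp from the start of PGK1, a glycolysis gene (chromosome X, 78103742 to 78104378), ranked 1 in all WT lists and 5 in both rep217A lists. Both regions were among the 10000 strongest peaks of all 3 Empty lists as well. The region inside TIMP2, an inhibitor of metalloproteinases, ranked 4 in each WT list and 72 and 76 in rep217A.

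The regions of the 2 directions differed in where they lay. Of those that ranked higher in rep217A, 23.5% lay within 1000 bp of a gene end, either start or finish, against 34.1% of those that ranked lower and 42.1% of those not called. They lay more often inside genes away from the ends (40.2%, 36.1% and 31.2%) and outside genes (36.3%, 29.8% and 26.7%). Their median width was 720.5 bp, against 892 bp and 797 bp. Of the 10000 strongest peaks, 37.0% and 36.0% in the rep217A lists had a summit within 1000 bp of a gene end, against 38.9%, 40.2% and 41.8% in WT (exact permutation test, p = 0.1). That difference turned when peaks were ranked by fold enrichment, where the mean was 34.0% in rep217A and 28.3% in WT.

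E-boxes were counted in promoter windows, from 250 bases before to 50 after the start, that a strong peak overlapped. CACGTG was searched on both strands and stands in 7.45% of all 27195 windows, CAGCTG in 17.7%, CATGTG in 11.2% and TCACGTG, which contains CACGTG, in 3.83%. TCATGTG stands in 2.97%. Among windows under the 10000 strongest peaks, CACGTG stood in 12.6% and 13.2% in the rep217A lists and in 17.9% ± 0.118 in WT (SD, n = 3). CAGCTG went the other way, with 18.5% and 19.2% in rep217A and 15.98% ± 0.139 in WT. The groups did not overlap for either hexamer, and the exact permutation test gave p = 0.1 for each, the smallest possible, and 0.167 after adjustment over the 10 motifs tested. In the 26 lists of the other groups, Empty included, the share of CAGCTG was 14.7% to 16.7%, below both rep217A lists.

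The contrast was larger among the strongest peaks. Under the 1000 strongest peaks, 25.6% of 351 windows and 27.9% of 308 windows of rep217A held CAGCTG, against 12.5% to 14.5% of 488 to 504 windows in WT and 10.9% to 14.7% in the other 26 lists. Only the rep217A lists exceeded the 17.7% of all windows in this count. Under the 500 strongest peaks the shares were 32.2% and 35.5% in rep217A and 12.6% to 13.6% in WT. The share of CACGTG under the 1000 strongest peaks was 15.1% and 16.2% in rep217A and 23.9% to 25.2% in WT, and in rep263A it was 20.5% and 21.0%. In rep217A the palindrome with the CG centre was still above the 7.45% of all windows and above the 10% to 11.98% of Empty. The sites with a T before the hexamer moved with it: TCACGTG stood in 11.97% and 13.3% of the rep217A windows and in 18.2% to 18.9% of the WT windows.

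**Figure D3:**
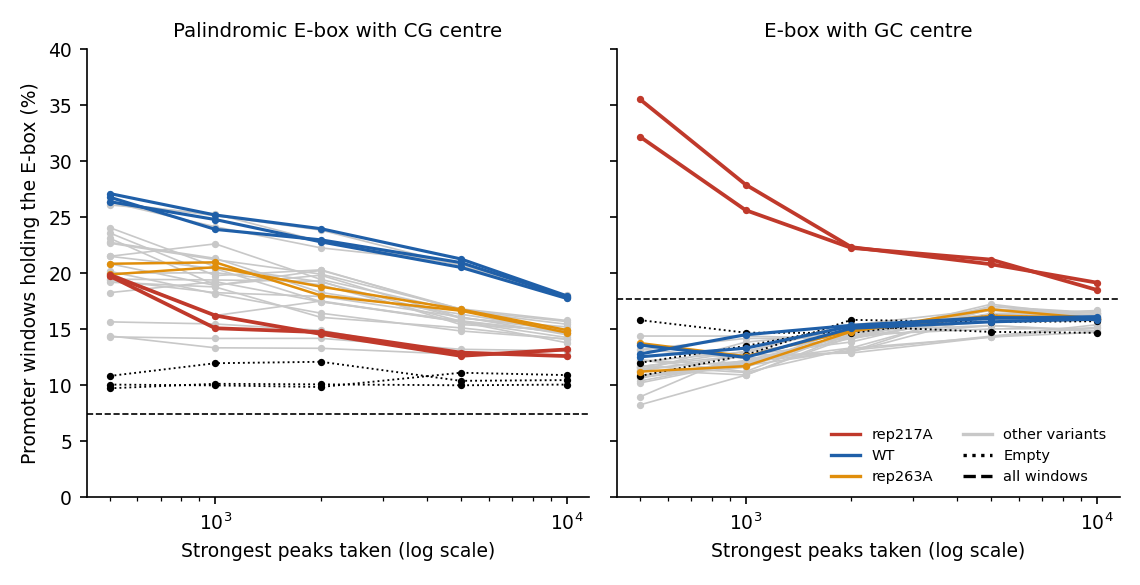
Share of promoter windows under the strongest peaks that hold the palindromic E-box with a CG centre (left) or the E-box with a GC centre (right), in % (y axis), against the number of strongest peaks taken (x axis, log scale), with 1 line per list and the share of all windows dashed. In the right panel the 2 rep217A lists lie above all other lists at every number taken, and in the left panel they lie below the 3 WT lists.

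The same was seen region by region. Among regions with a promoter window, 31.1% of the 771 that ranked higher in rep217A held CAGCTG, against 14.1% of the 1345 that ranked lower and 18.5% of the 1807 not called. CACGTG stood in 5.84%, 29.1% and 11.3% of them, and CATGTG in 5.97%, 10.3% and 7.08%. These shares come from the same lists as those above and are a second view of them. Of the other motifs, AP-1 sites (TGANTCA) stood in 7.78%, 5.28% and 3.93%, and ETS sites (CCGGAAG) in 19.5%, 21.4% and 21.6%. GC boxes (GGGCGG), AP-2 sites (GCCNNNGGC) and CRE sites (TGACGTCA) were searched in the same way, and their shares under the 10000 strongest peaks differed by less than 1 percentage point between the group means. Of all windows, 7.73% hold the AP-1 site, 10.7% the ETS site, 44.7% the GC box, 23.1% the AP-2 site and 1.98% the CRE site. The CAGCTG hexamers also lay nearer the summits in rep217A. For the 1000 strongest peaks, the median distance from a summit in a window with CAGCTG to the hexamer was 60.5 and 58.5 bp in rep217A (78 and 71 summits), 86 to 101.5 bp in WT (52 to 56 summits) and 102.5 and 133.5 bp in rep263A. For CACGTG it was 55 and 35.5 bp in rep217A (44 and 39 summits) and 48.5 to 55.5 bp in WT. For the 10000 strongest peaks CAGCTG lay 76.5 and 72 bp from the summit in rep217A and 88.5 to 90.5 bp in WT, while CACGTG lay farther in rep217A, at 61 and 59.5 bp against 42 to 42.5 bp.

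All 10 hexamers of the form CANNTG were then counted, a step chosen after the shares above were seen. Under the 1000 strongest peaks CACCTG stood in 21.2% of the rep217A windows and 15.2% of the WT windows (means of the lists), CAACTG in 10.2% and 7.02%, and CAGATG in 11.9% and 9.11%. Of all windows, 20.6%, 11.4% and 14.7% hold them. CAGCTG had the highest difference of the 10, at 13.3 percentage points, and CACGTG the lowest, at -8.98. CACATG, the site named CATGTG above, differed by -1.74. Under the 10000 strongest peaks the differences were smaller, at 0.43 points for CACCTG, 0.54 for CAACTG, 0.89 for CAGATG, 2.87 for CAGCTG, -4.98 for CACGTG and -0.63 for CACATG. The sequence of regions away from promoters was not used here.

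The regions that changed rank were set against the other groups. The sets were chosen on rep217A and WT, so the values of these 2 groups are a description. The regions that ranked higher in rep217A were among the 10000 strongest peaks in 90.9% of cases in rep217A and 32.5% in WT. In the other variants the share was 33.9% (A264C) to 38.3% (N278D), with 37.8% in rep263A, and in Empty it was 26.4%. The regions that ranked lower were there in 90.6% of cases in WT, 90.0% in A264C, 80.6% in rep263A, 63.8% in K243A, 51.8% in G244E, 31.6% in rep217A and 24.1% in Empty. Of all 13413 regions, 47.6% to 49.3% were there in the G244E lists, 51.5% to 53.5% in K243A, 59.7% and 59.9% in rep263A, 61.3% in both rep217A lists, 60.3% to 64.8% in WT and 25.3% to 32.7% in Empty, so the shares of G244E and Empty lie near or below those of any region tested. The highest share of the higher set in a list of another variant was 39.6%. Of 732 regions that were among the 10000 strongest in both rep217A lists and past rank 20000 in all WT lists, 235 were past it in the 23 lists of the other variants too, and none was within it in all 23. They lay at a gene end in 7.65% of cases, against 34.0% of all regions tested, and 18.4% were within the strongest peaks of an Empty list. The reverse set held 773 regions, none of which was past it in all 23 lists and 38 of which were within it in all of them. Of the 773, 15.8% lay at a gene end and 16.7% were within the strongest peaks of an Empty list, near the 18.4% above. Nearly all remained listed at some rank in the other group: 689 of the 732 in all WT lists, and 687 of the 773 in both rep217A lists.

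**Figure D4:**
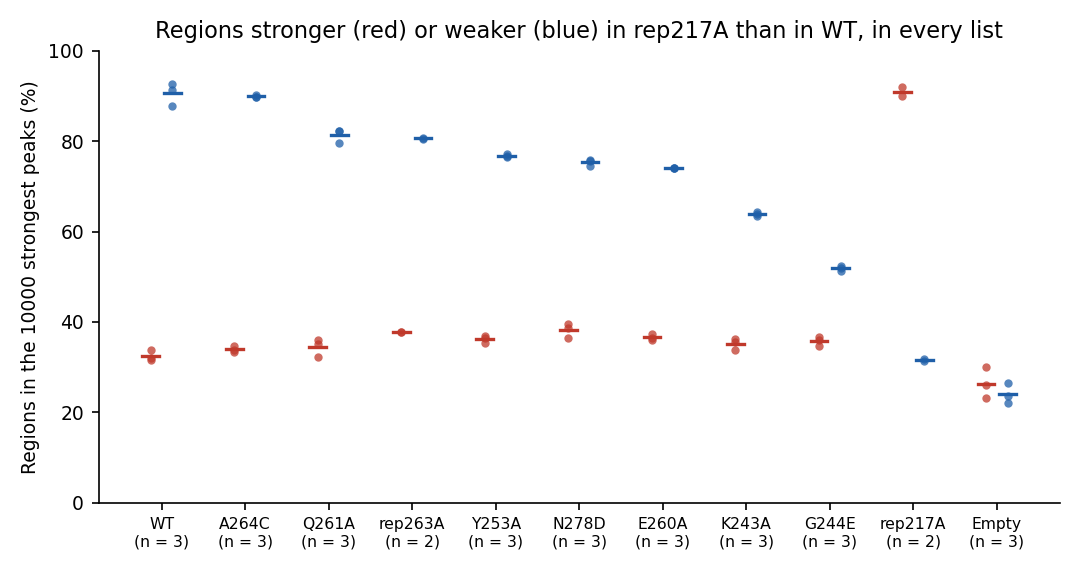
Share of the 3906 regions that ranked higher in rep217A than in WT (red) and of the 4515 that ranked lower (blue) among the 10000 strongest peaks of every list (y axis, %), by group, with 1 point per list and a bar at the mean. The red points stand near 90% in rep217A and under 40% in every other list, and the blue points fall from WT on the left to rep217A and Empty on the right.

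Genes were ranked by the best peak with a summit within 5000 bp of the gene start, or of a gene end where no strand was given, over 5936 genes with a rank up to 10000 in any of the 5 lists. By limma, 1253 genes (21.1%) ranked higher in rep217A and 2012 (33.9%) ranked lower, with a median gain of -0.19 over all genes. Ranked by fold enrichment instead, 1266 of 6387 genes (19.8%) ranked higher and 593 (9.28%) lower, and the median moved to 0.40, so the split between the directions depends on the ranking. After thinning to a common background pileup the counts were 761 higher and 1271 lower of 6335. A gene enters the test through the group in which it stands high, so the list counts below are a description and are set beside these shares.

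Of the 16 pigmentation genes, 13 were tested, 9 of them strong (a rank up to 10000 in at least 1 list) in both groups, 3 in WT alone and 1 in rep217A alone. Of the 13, 3 ranked higher in rep217A, 5 ranked lower and 5 did not pass the test, with a median gain of -0.59. TRPM1, a melanocyte cation channel, ranked 2192, 2059 and 1815 in WT and was past 20000 in both rep217A lists (gain -3.31, adjusted p = 1.2e-06). SLC24A5, an ion exchanger of melanosomes, ranked 5626, 4455 and 4882 in WT and 20998 and 19547 in rep217A (gain -1.99). GPR143, a melanosome receptor, ranked 5887, 5660 and 4884 in WT and was past 20000 in rep217A (gain -1.87). By fold GPR143 did not pass (gain -0.88, limma adjusted p = 0.0904). CATGTG stands in the windows of these 3 genes and also in those of GPNMB and OCA2, of MC1R, which ranked higher, of TYR, which did not pass, and of TYRP1, which was not tested. GPNMB, a melanosome glycoprotein, ranked 770, 783 and 1096 in WT and 4153 and 4420 in rep217A, a gain of -2.30 that turned to 0.25 by fold. OCA2, a melanosome transporter, had a gain of -0.95 that no longer passed after thinning, without replicate 1 of rep217A or without replicate 2 or 3 of WT.

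Other pigment genes rose in rank. MLPH, which encodes melanophilin, the adaptor for melanosome transport, ranked 1247, 1678 and 2005 in WT and 110 and 108 in rep217A (gain 3.89 ± 0.30, adjusted p = 6.07e-07). Its window holds both CACGTG and CAGCTG. MC1R, the melanocortin receptor, ranked 9663, 9101 and 9118 in WT and 1321 and 1649 in rep217A (gain 2.65), and MYO5A, the melanosome motor, ranked 8457, 8799 and 6949 against 2036 and 5084 (gain 1.32). MYO5A did not pass without replicate 1 of rep217A or replicate 1 of WT. MYO5A also had a peak among the 10000 strongest of 3 Empty lists, MC1R of 2 and MLPH of 0. Of the lower pigment genes, SLC24A5 had one in 2 Empty lists, GPNMB in 1, and TRPM1, GPR143 and OCA2 in 0. TYR, which encodes tyrosinase, the key enzyme of melanin synthesis, ranked 4418, 4178 and 6912 in WT and 8092 and 9017 in rep217A (gain -0.76, adjusted p = 0.0522). PMEL, of the melanosome fibril, ranked 1252, 1276 and 1525 against 2015 and 1566 (gain -0.40). MLANA, SLC45A2 and RAB38 also did not pass the test, with gains of -0.18, 0.10 and -0.59. TYRP1, DCT and RAB27A stood past rank 10000 in all 5 lists and were not tested.

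**Figure D5:**
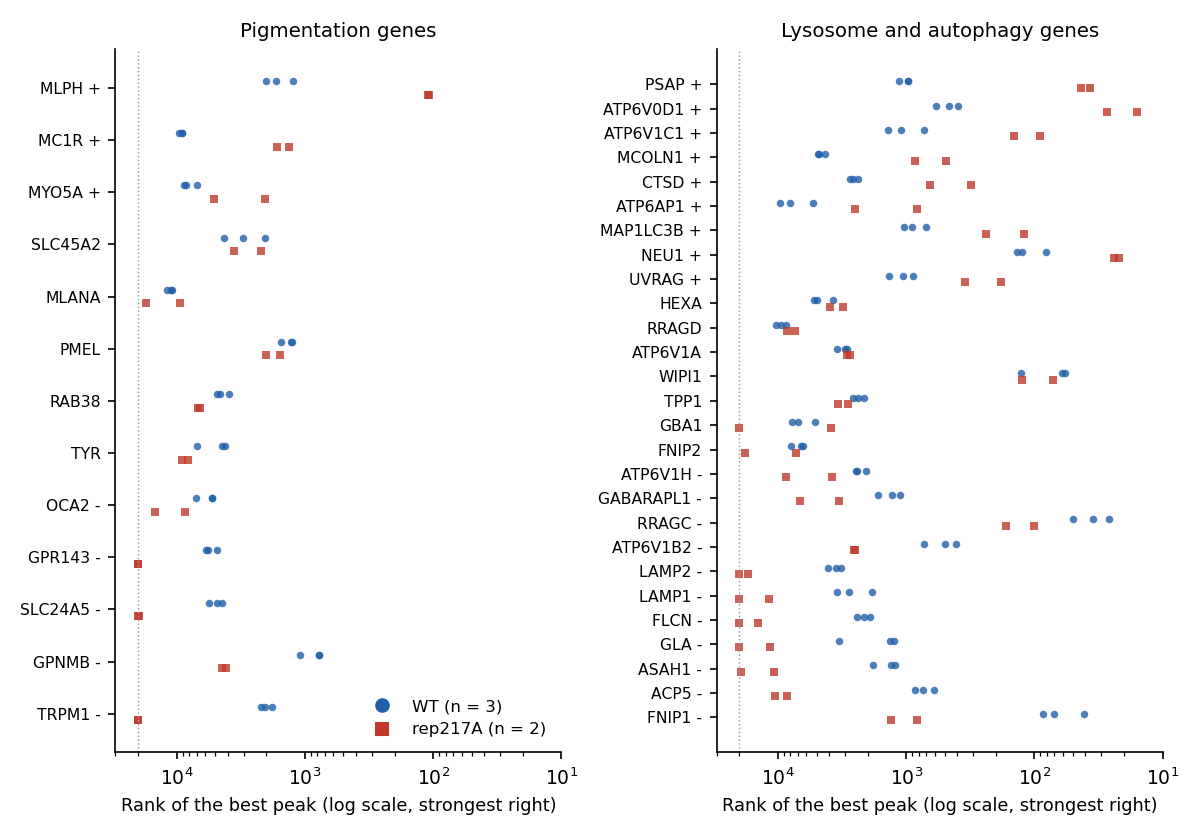
Rank of the best peak within 5000 bp of each tested gene in the 3 WT lists (blue circles) and 2 rep217A lists (red squares), on a log axis with the strongest to the right and ranks past 20000 at the dotted line; + and - mark genes that ranked higher or lower in rep217A. Pigmentation genes (left) and lysosome and autophagy genes (right) hold genes of both directions, from PSAP, MLPH and ATP6V0D1 at the top to TRPM1, ACP5 and FNIP1 at the bottom.

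Of 33 lysosome and autophagy genes, 27 were tested, 22 of them strong in both groups and 5 in WT alone. Of these, 9 ranked higher, 11 ranked lower and 7 did not pass, with a median gain of -0.39. PSAP, the precursor of the saposins that assist lipid breakdown, ranked 962, 1136 and 960 in WT and 43 and 37 in rep217A (gain 4.67 ± 0.28, adjusted p = 1.06e-07). ATP6V0D1, a subunit of the proton pump that acidifies lysosomes, ranked 393, 588 and 462 in WT and 27 and 16 in rep217A (gain 4.51). Another pump subunit, ATP6V1C1, had a gain of 3.17, and ATP6AP1, an accessory subunit, one of 2.37. The lysosomal calcium channel MCOLN1 (gain 2.85), the protease CTSD (2.51), the sialidase NEU1 (2.28) and the autophagy genes MAP1LC3B (2.35) and UVRAG (2.12) also ranked higher. NEU1 ranked 81, 137 and 124 in WT and 22 and 24 in rep217A. All 9 stayed positive by fold rank, where ATP6AP1 did not pass the test. NEU1 and MAP1LC3B also had a peak among the 10000 strongest of 3 Empty lists, and ATP6V0D1 and UVRAG of 2. PSAP and CTSD had one in 1 Empty list, and ATP6V1C1, ATP6AP1 and MCOLN1 in 0.

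The lysosome genes that ranked lower included parts of nutrient sensing. FNIP1, a partner of folliculin, ranked 86, 71 and 41 in WT and 1311 and 827 in rep217A, a gain of -4.05 that turned to 1.21 by fold. FLCN, folliculin itself, had a gain of -2.97, and RRAGC, a Rag GTPase, a gain of -1.86 that turned to 1.99 by fold. ACP5, an acid phosphatase, ranked 746, 850 and 611 in WT and 8562 and 10471 in rep217A (gain -3.70). The ceramidase ASAH1 (-3.33), the galactosidase GLA (-3.10), the membrane proteins LAMP1 (-2.55) and LAMP2 (-2.37) and the autophagy gene GABARAPL1 (-1.83) ranked lower as well. The pump subunits ATP6V1B2 (-2.25) and ATP6V1H (-1.31) turned to 1.08 and 0.27 by fold. The subunits of 1 pump thus stood in both directions. By fold, 12 of 25 lysosome genes ranked higher and 0 lower by limma, so the lower calls of this list rest on the ranking by −log10 q. Of the lower genes, FNIP1 had a peak among the 10000 strongest of 3 Empty lists and GABARAPL1 of 2. RRAGC, LAMP2, GLA and ASAH1 had one in 1 Empty list, and FLCN, ACP5, LAMP1, ATP6V1B2 and ATP6V1H in 0.

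Of 16 lineage regulators, 7 were tested, 2 of them strong in both groups and 5 in rep217A alone, and 9 entered through neither group. Of the 7, 6 ranked higher in rep217A and 1 ranked lower. SOX10, a neural crest factor that acts upstream of MITF, ranked 15990, 15886 and 15164 in WT and 3340 and 2098 in rep217A (gain 2.57). IRF4, which takes part in pigment gene regulation, ranked 4708, 1561 and 1787 against 643 and 615 (gain 1.91, not past the threshold without replicate 2 of rep217A). SOX9 had a gain of 1.70. MITF itself ranked 19888, 16110 and 22843 in WT and 7890 and 8599 in rep217A, a gain of 1.17 that did not pass by fold or after thinning and was -1.15 over the gene body with its flanks, where it passed in the other direction. Its relatives TFEB (0.98, not past the threshold after thinning) and TFE3 (0.81, not past it without any 1 of the 3 WT lists) ranked higher. EDNRB, the endothelin receptor of melanocytes, ranked lower (-1.11, not past the threshold without either rep217A list, without replicate 3 of WT or after thinning). After thinning 3 of 6 lineage genes ranked higher and 0 lower by limma.

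Of 20 survival, cell cycle and metabolism genes, 15 were tested, 8 of them strong in both groups, 4 in rep217A alone and 3 in WT alone. Of the 15, 5 ranked higher, 5 lower and 5 did not pass, while by fold 5 of 10 ranked higher and 0 lower by limma. CDKN1A, the cell cycle inhibitor p21, ranked 2175, 2072 and 2282 in WT and 336 and 265 in rep217A (gain 2.87). HIF1A, the hypoxia factor, ranked 862, 1351 and 1407 against 167 and 157 (gain 2.86), and its window and that of CDKN1A hold CAGCTG. Over the gene lists, CAGCTG also stands in windows of NEU1, CTSD, MCOLN1 and ARRDC4, which ranked higher. It stands as well in those of CDK4, ACP5, GLA, GABARAPL1 and USF2, which ranked lower, and of MLANA and WIPI1, which did not pass. The survival genes MCL1 (2.47) and BCL2 (1.07, and 0.84 by fold, not past the threshold) and the kinase CDK2 also ranked higher. CDK2 had a gain of 0.96 that did not pass after thinning, without replicate 1 of rep217A or without replicate 2 or 3 of WT. BIRC7, an inhibitor of apoptosis, ranked 1935, 1291 and 1080 in WT and 37861 and 12494 in rep217A (gain -3.51). CDK4, a cell cycle kinase, ranked 29, 113 and 127 against 430 and 876, a gain of -3.04 that turned to 2.61 by fold and did not pass without replicate 2 of rep217A. SPRY4, a feedback inhibitor of growth factor signalling, had a gain of -2.24 and the inhibitor CDKN1B one of -1.97 that was -1.02 by fold, not past the threshold. SPRY2 had a gain of -1.63 that turned to 0.23 by fold. Of the higher genes, MCL1 and CDK2 had a peak among the 10000 strongest of 3 Empty lists, CDKN1A of 2, and HIF1A and BCL2 of 0. Of the lower genes, CDK4 and CDKN1B had one in 3 Empty lists, SPRY2 in 2, BIRC7 in 1 and SPRY4 in 0.

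Among 22 targets of other E-box factors, such as clock and MYC targets, 16 were tested, 12 of them strong in both groups, 1 in rep217A alone and 3 in WT alone. Of the 16, 1 ranked higher, 9 ranked lower and 6 did not pass, with a median gain of -0.82. NR1D1, a clock repressor, ranked 544, 450 and 530 in WT and 9489 and 8183 in rep217A (gain -4.12 ± 0.28, adjusted p = 2.41e-07). NCL, which encodes nucleolin, ranked 185, 152 and 100 against 3600 and 1733 (gain -4.15, and -0.22 by fold, not past the threshold). DBP, a clock output factor, had a gain of -1.89 and USF2 one of -1.31. NPM1, of the nucleolus, and MAX, the partner of MYC, had gains of -2.89 and -1.36 that turned to 1.62 and 0.92 by fold, as did NR1D2 (-0.80 to 2.22). NR1D2 did not pass without replicate 1 of rep217A, without any 1 of the 3 WT lists or after thinning. BHLHE41 (-0.93, not past the threshold after thinning) and CAD (-0.84, not past it without either rep217A list or without replicate 3 of WT) also ranked lower. ARRDC4 ranked higher (1.08, not past the threshold after thinning, by fold, without replicate 1 of rep217A or without replicate 3 of WT). After thinning 1 gene ranked higher and 5 lower of 15, and by fold 3 of 9 ranked higher and 0 lower by limma.

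Of 13 housekeeping genes tested, 2 ranked higher, 3 ranked lower and 8 did not pass. By fold 6 of 9 ranked higher and 1 lower, and PGK1 (gain -2.32) and PPIA (-2.02) turned to 4.10 and 1.53, past the threshold in the other direction. Of 6 invasive-state genes 1 ranked higher and 1 lower, and by fold 0 of 4 passed in either direction by limma. Of 5 DNA repair genes 1 ranked higher and 1 lower. The lower one, APEX1, had a gain of -0.89 that did not pass after thinning, without either rep217A list or without replicate 2 or 3 of WT, and that turned to 2.37 by fold, where 2 of the 5 ranked higher and 0 lower by limma. Markers of other cell types were mostly not tested for want of a strong peak: 2 of 12 hepatocyte, 2 of 12 lymphoid and 1 of 12 keratinocyte genes entered, and 1 of these 5, the lymphoid kinase gene LCK, ranked lower. Peaks at a gene do not measure its expression.

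The genes with the lowest adjusted p-values over the whole table mostly lie outside these lists. Among the higher genes, MAF, which encodes a basic leucine zipper factor, ranked 19688, 10966 and 11073 in WT and 208 and 251 in rep217A (gain 5.87), and AKR7A2, an aldehyde reductase gene, ranked 2208, 1463 and 1931 against 58 and 68 (gain 4.87). PSORS1C2, whose window also holds CAGCTG, ranked 10059, 9887 and 13628 against 359 and 312 (gain 5.05). SIX3, a homeobox gene of the forebrain and eye, ranked 57515, 100404 and 68480 in WT and 752 and 554 in rep217A, so a site far down the wild-type lists was among the strongest of the variant. The others were ZSCAN22 (5.73), PNKD (5.95), ESCO1 (6.33), TEX2 (5.50), and TWNK and LZTS2 (4.91 each), which share 1 peak. All 10 kept a positive gain by fold, from 1.66 to 6.10.

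Among the lower genes were PPP1R12B, USP32, FTH1, TNFRSF14 and SLC25A13 from the regions above. TBL2 ranked 84, 55 and 44 in WT and 5507 and 6954 in rep217A (gain -6.72). HSD17B14, a steroid dehydrogenase gene, ranked 220, 231 and 170 against 15657 and 10237 (gain -5.95). RAB7A, the GTPase of late endosomes and lysosomes, ranked 212, 201 and 140 against 10898 and 8279 (gain -5.71, and -0.29 by fold, not past the threshold). TRAPPC3, of a vesicle tethering complex, had a gain of -5.53 that was -0.11 by fold, CTDP1 one of -5.33 that turned to 0.079, and FTH1 one of -6.20 that turned to 2.05. These lower calls mark a fall in rank by −log10 q, and by fold enrichment PPP1R12B (-3.73), TBL2 (-1.32) and HSD17B14 (-2.53) still fell.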

How the data were processed

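CUT&Tag peak lists of 3 rep217A and 3 WT samples were analysed, with the other groups as values. The submitters' processing notes list MACS2 (its version not given there), Bowtie2 2.3.4.3 and bcl2fastq 2.20.0.422, with the build hg38. Each list was called on 1 library. No source used here states how duplicates were treated or if a control library served in calling. The authors deposited for each peak a fold enrichment (a ratio of summit to background), a −log10 p, a −log10 q and the summit position. The deposited score was not used.

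Only peaks of chromosomes 1 to 22 and X entered. From the fold and the p-value, the whole-number summit pileup and the background were recovered (a whole number fitted 100% of peaks with low −log10 p in every list), and the commonest background was taken as relative depth. Counts of reads per library were not used here, so depth is relative. Ranks by −log10 q were taken within each list, and those past 20000 set to a common value just past it. Regions and genes were tested with limma 3.58.1 in R 4.3.3 (robust, on the negative log2 rank, no covariate, adjusted over the whole table, threshold 0.05). It was also run on simulated data in which far fewer regions changed than were called here, so that run does not gauge the counts above. Shares were tested by exact permutation over libraries (two-sided, 10 splits). Gene spans, starts and promoter windows came from RefSeq (GRCh38.p14), and starts were at hand for 15812 of 19974 protein-coding genes. All listed gene symbols were matched.

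Named regions are the 12 of lowest adjusted p-value a direction without overlap between groups, and the 5 of best mean rank a group. The 12 of each direction shared the same adjusted p-value, and such ties were ordered by the size of the log2 rank difference. Named genes are the called genes of 5 lists, all pigmentation genes and the 10 of lowest adjusted p-value a direction. Features singled out for their values within these sets were chosen after the values were seen. The members, lists and rules were chosen with earlier results of these data known. Alternatives changed the number of strongest peaks, the ranking, the depth (1 seeded thinning, seed 1), the scale, the block, the windows and the libraries kept. The replicate numbers were not used as pairs in the main test. Taking 1 peak per interval and the 1000 strongest peaks were chosen after seeing the data. Sequence outside promoter windows was not analysed here.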

Additional observations from a re-analysis of the deposited data

How the results depend on the processing

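Depth and ranking limit these comparisons, since rep217A is shallower than WT, fold and −log10 q order the peaks differently, and n is 2. The share of WT peaks found and the shares of CACGTG and CAGCTG kept their direction under all alternatives run, with exact p-values at the smallest each design allows.

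Of 13413 regions, 3906 ranked higher and 4515 lower. These became 2352 and 2683 with the 5000 strongest peaks (32.3% and 36.8% of 7285 regions) and 6063 and 7220 with 20000 (24.7% and 29.4% of 24532). By fold 2868 ranked higher and 2749 lower (16.3% and 15.6% of 17620). After thinning 2752 ranked higher and 2941 lower (19% and 20.4% of 14449). Leaving out 1 list gave 2565 to 3852 lower regions. Gene counts of 1253 higher and 2012 lower of 5936 became 755 and 1285 by normal scores and 761 and 1271 of 6335 after thinning. The lower count was 593 of 6387 by fold, and the higher count 1987 of 8117 over gene bodies. In these settings fewer or more features are tested or the scale differs, and otherwise the cause was not tested.

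The gene-end difference was 5.76 percentage points by fold. At 5000 peaks AP-2 turned to -0.18 and CRE to -0.15. At 1000 the T-flanked CATGTG turned to 0.19, AP-1 to -0.47, AP-2 to -1.71, ETS to 0.080 and the GC box to -0.30. T-flanked CATGTG was 0.12 by fold, CRE -0.11 after thinning, and ETS 0.19 with 1 peak per interval. The cause was not tested.

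By fold the gain turned for PMEL (1.21), MLANA (0.74), RAB38 (0.93), GPNMB (0.25), RRAGC (1.99), FNIP1 (1.21), ATP6V1B2 (1.08), ATP6V1H (0.27), CDK4 (2.61), SPRY2 (0.23), NR1D2 (2.22), NPM1 (1.62), MAX (0.92), FTH1 (2.05) and CTDP1 (0.079). Thinning turned PMEL (0.34) and MLANA (0.039). Gene bodies turned MLANA (1.498) and MITF (-1.15). Leaving out 1 list gave -0.22 to 0.25 for MLANA and -0.25 to 0.45 for SLC45A2. For single genes, 83 other values lost and 5 gained significance, and 1125 did neither.

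Replicate numbers 1 and 2 occur in both groups, and deviations of same-numbered lists correlated at 0.043 and 0.031 over 4093 regions. The deviations of the 2 rep217A lists mirror each other, so these values cannot tell whether the numbers pair the lists. With the replicate block, 3621 regions ranked higher and 4277 lower, and 1012 genes higher and 1706 lower.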
